A study of Mus musculus with 12 samples.

Results

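The 10 genes described here encode the enzymes that methylate or demethylate lysine 9 of histone H3 (H3K9) and the heterochromatin proteins that bind the mark. They are the methyltransferase genes Setdb1, Ehmt1, Ehmt2, Suv39h1 and Suv39h2, the heterochromatin protein 1 (HP1) genes Cbx1, Cbx3 and Cbx5, the corepressor gene Trim28 and the demethylase gene Kdm1a. They form a named list that was matched by symbol, and the rule of the list holds no measured value. All 10 were found among the 17885 genes listed for Eed iKO and control hair follicle stem cells (HFSCs) and among the 21915 genes listed for anagen and telogen HFSCs. All 10 also passed the filter on low values, which left 15008 and 13457 genes for testing.

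RNA was measured in 12 libraries of HFSCs from mouse back skin, in 4 groups of 3. The question was how these cells depend on the Polycomb complex PRC2, of which EED is a core subunit. The sort of C57BL/6J skin cells kept those with CD34, EpCAM and high α6-integrin and without Sca1. Control mice carried the genotype label wildtype, were taken at postnatal day 70 (P70) and, per the study's methods, received the ethanol vehicle. Eed iKO mice were K15-CrePGR; Eed fl/fl animals, labelled Eed -/-, that received topical RU-486 at 10 mg/ml for 7 days from P50 and were also taken at P70. The K15 promoter drives the RU-486-inducible Cre in bulge cells, so the deletion depends on where that promoter is active. RU-486 was given to the Eed iKO mice only, so the drug and the deletion cannot be told apart. Anagen cells came from wildtype mice at P28-30 and telogen cells from wildtype mice at P50-52, so hair cycle stage and age cannot be told apart. Replicates of the control and Eed iKO groups were described as biological, from at least 2 litters. For the hair cycle groups 6 animals were named, which can be read as 6 in all or per stage, and whether a library pooled animals was not stated.

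Values are normalised read counts, and the tables of the Eed and the hair cycle comparison were normalised separately, so levels are set side by side only within a table. Whole read counts could be recovered for the Eed table. Over the 17885 genes listed they came to between 33269583 and 57063586 per library. These are counts as quantified by the authors with kallisto, and not the full sequencing depth. For the hair cycle table no such counts could be recovered and the depth is unknown. Eed itself was at 1084, 1249 and 950.2 in control replicates 1 to 3 and at 933.3, 1361 and 1001 in the Eed iKO replicates (log2 fold change -0.01, SE 0.22, limma with Benjamini-Hochberg adjusted p = 0.993). These sums over the whole gene did not differ beyond their spread, and single exons were not analysed here, so this gene does not check the labels. Every direction below is between libraries labelled Eed iKO and control. Eed iKO replicate 3 stood apart from the other Eed iKO libraries in the proliferation marker Mki67, at 609.0 against 6125 and 6301. All 11 HFSC markers listed, among them Cd34, Krt15, Sox9, Lhx2 and Nfatc1, were tested and above 0 in every library.

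H3K9 methylation marks silent chromatin. SUV39H1 and SUV39H2 place the trimethyl mark on pericentromeric repeats, SETDB1 is brought by TRIM28 to retroviral elements and other target sites, and EHMT1 (GLP) and EHMT2 (G9a) work as a pair that places the dimethyl mark in gene-rich chromatin. HP1 proteins bind methylated H3K9 through a chromodomain and recruit further silencing factors. KDM1A (LSD1) removes mono- and dimethyl marks, from H3K4 within the CoREST complex and, in other settings, from H3K9. In hair follicles, bulge stem cells rest in telogen and divide for a short time at anagen onset.

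In the hair cycle comparison, 2 of the 10 genes rose in anagen HFSCs, the HP1 genes Cbx5, 3.25-fold, and Cbx3, 2.33-fold. No gene of the 10 fell, and none of the 3 with lower values in anagen (Ehmt1, Ehmt2 and Kdm1a) had an unadjusted p under 0.05 in limma, the only tool run on this table. The 2 called genes stand against a background of 11.6% of the 13457 genes tested that were called in either direction and 7.22% called higher in anagen. Suv39h1 was 2.13-fold higher at an adjusted p of 0.0808 (limma), and the remaining 7 genes differed by a log2 fold change between -0.36 and 0.60 with intervals that include 0. The median log2 fold change was 0.37 over the 10 genes and 0.01 over all genes tested, and the median size of the log2 fold change without its sign was 0.40 against 0.49. As in any bulk sample, fewer cells of a type and less RNA per cell cannot be told apart.

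Cbx5 encodes HP1α, the form most often found at pericentromeric heterochromatin (chromosome 15, 103191544 to 103239816, minus strand, GRCm38). Its normalised counts were 1061, 2276 and 2398 in telogen replicates 1 to 3 and 6619, 6255 and 4831 in the anagen replicates. Every anagen library lay above every telogen library, and telogen replicate 1 was the lowest. Cbx5 rose by a log2 fold change of 1.70 (SE 0.29, 95% confidence interval 1.06 to 2.35, limma adjusted p = 0.00438).

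Cbx3 encodes HP1γ, an HP1 form found in both silent chromatin and transcribed genes (chromosome 6, 51470360 to 51483704, plus strand). It was at 1769, 3007 and 2598 in telogen and at 6562, 5825 and 4564 in anagen, again with no overlap. The log2 fold change was 1.22 (SE 0.23, interval 0.71 to 1.73, limma adjusted p = 0.00725). The call on Cbx3 was lost when limma was fitted without an intensity trend (adjusted p = 0.0643), while Cbx5 stayed under the threshold there (adjusted p = 0.0493). The annotation names 8 pseudogenes of Cbx3, whose reads may be shared with it, so its level is uncertain.

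Cbx1 encodes HP1β, the third member of the family (chromosome 11, 96789127 to 96808640, plus strand). Its counts were 1250, 1379 and 677.8 in telogen and 1208, 1129 and 1466 in anagen. The groups overlapped, and telogen replicate 3 was the low library. The log2 fold change was 0.26 (SE 0.27, interval -0.35 to 0.86, limma adjusted p = 0.585).

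**Figure D1:**
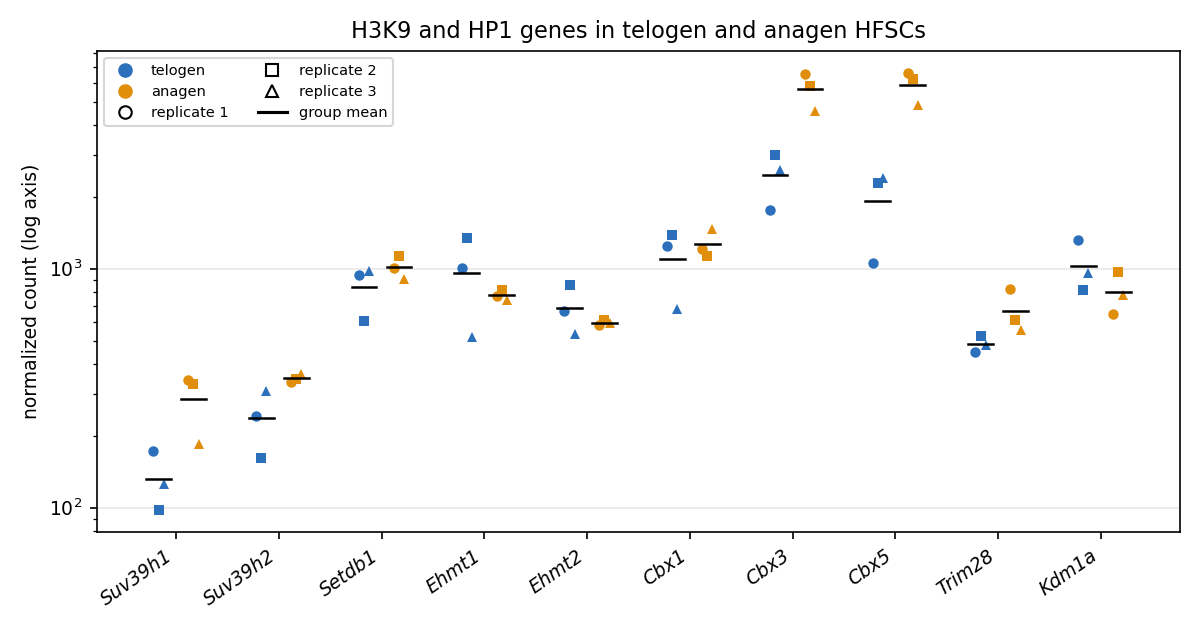
Normalised counts of the 10 genes in the 3 telogen and 3 anagen libraries on a log axis, with 1 symbol per replicate and a bar at each group mean. Cbx3 (telogen 1769 to 3007, anagen 4564 to 6562) and Cbx5 (1061 to 2398, 4831 to 6619) separate fully, while Cbx1, Setdb1, Ehmt1, Ehmt2 and Kdm1a overlap between the stages.

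The sequence before the transcription start of the HP1 genes that rose is shown here because both moved together, with that of Suv39h1 and Ehmt2, the methyltransferase genes with the largest differences in the hair cycle and the Eed comparison. All 10 genes were matched in the RefSeq promoter table (GRCm38.p6), with 14 listed starts. Each line holds the 250 bases before a listed start, 5′ to 3′ on the gene's strand, with capitals for matches on either strand to the E2F words TTTCGCGC, TTTGGCGC, TTTCCCGC and TTTGCCGC, to the cell cycle homology region (CHR) words TTTGAA and TTCGAA, or to CCAAT. The windows are chr6:51470366-51470615 (plus strand) for Cbx3, chr15:103239853-103240102 (minus) for Cbx5 and chr17:34898224-34898473 (plus) for Ehmt2, each before the first listed start. That for Suv39h1 is chrX:8074362-8074611 (minus), before its second listed start, shown because it holds an E2F word.
Cbx3: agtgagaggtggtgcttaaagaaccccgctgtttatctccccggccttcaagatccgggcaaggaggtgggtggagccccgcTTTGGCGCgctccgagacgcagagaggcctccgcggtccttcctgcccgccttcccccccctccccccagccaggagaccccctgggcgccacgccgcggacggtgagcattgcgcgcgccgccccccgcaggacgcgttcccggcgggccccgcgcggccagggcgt
Cbx5: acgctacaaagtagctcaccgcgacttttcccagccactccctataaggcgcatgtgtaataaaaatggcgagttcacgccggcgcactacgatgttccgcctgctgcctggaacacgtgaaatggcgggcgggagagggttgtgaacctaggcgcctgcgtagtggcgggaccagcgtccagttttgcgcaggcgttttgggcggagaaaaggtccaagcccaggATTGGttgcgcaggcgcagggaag
Suv39h1: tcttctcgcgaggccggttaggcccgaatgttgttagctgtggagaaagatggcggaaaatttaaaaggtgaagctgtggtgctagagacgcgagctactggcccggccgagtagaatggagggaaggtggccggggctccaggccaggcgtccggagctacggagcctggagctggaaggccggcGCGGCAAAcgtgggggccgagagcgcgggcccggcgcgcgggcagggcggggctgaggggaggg
Ehmt2: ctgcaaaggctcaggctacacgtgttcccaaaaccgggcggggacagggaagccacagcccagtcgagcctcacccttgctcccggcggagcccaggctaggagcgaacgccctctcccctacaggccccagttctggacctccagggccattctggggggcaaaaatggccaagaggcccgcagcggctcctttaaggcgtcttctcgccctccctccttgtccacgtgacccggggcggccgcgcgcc

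Cbx3 carried the E2F word TTTGGCGC, which began 168 bases before the start, and Suv39h1 carried GCGGCAAA, the reverse complement of another E2F word, 64 bases before its second start. These were 2 of the 14 listed starts (14.3%), and 2.26% of the 300-base windows of 32851 promoters held an E2F word. The first listed start of Suv39h1, where its annotated gene begins, held no E2F word and 2 matches to CCAAT. The second listed start of Cbx3 held no E2F word either. Cbx5 held none of the E2F or CHR words searched and had ATTGG, the reverse complement of CCAAT, 24 bases before its first listed start. Just after that start, beyond the bases printed, lies TTTGGCGG. It differs from the searched word TTTGGCGC in the last letter only and was not counted. CCAAT was found at 4 of the 14 starts (28.6%, at Setdb1, Suv39h1, Cbx5 and Kdm1a) and in 37.4% of all promoters. Suv39h2 held the only CHR word (1 of the 14 starts or 7.14%, and 19.2% of all promoters) and the only cAMP response element word TGACGTCA (7.14% and 1.79%), and no gene of the 10 held the ETS word CCGGAAGT (3.89%). A match is a description of these letters and not a bound site. The Ehmt2 window held none of the words searched. The first listed start of each gene held between 15 and 34 CG dinucleotides, against a median of 7 over all promoters.

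Both HP1 genes that rose lie head to head with a ribonucleoprotein gene. The annotated start of Hnrnpa1 lies 616 bp from that of Cbx5, and the start of Hnrnpa2b1 lies 466 bp from that of Cbx3, each on the opposite strand. These neighbours were looked up by a rule of position, a start within 1000 bp on the opposite strand, after the values of the 10 genes had been seen. Hnrnpa1, an RNA-binding protein of pre-mRNA processing, was at 7939, 11361 and 9563 in telogen and at 27168, 18404 and 21296 in anagen (log2 fold change 1.21, SE 0.21, limma adjusted p = 0.00430). Hnrnpa2b1, of the same family, was at 15904, 16383 and 14493 in telogen and at 37195, 27968 and 29200 in anagen (1.00, SE 0.18, limma adjusted p = 0.00568). Both neighbours thus rose in the same direction as the HP1 gene beside them, with no overlap between the stages. The rule found a neighbour for another pair of genes, C2 at 204 bp from Ehmt2 and Slc27a5 at 922 bp from the first annotated start of Trim28. The RefSeq start of Trim28 lies elsewhere, in the window chr7:13023902-13024201, and the start of Slc27a5 is not within 1000 bp of it. C2 differed by a log2 fold change of -0.66 (limma, adjusted p = 0.499), and Slc27a5 was listed at 0 in every hair cycle library.

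**Figure D2:**
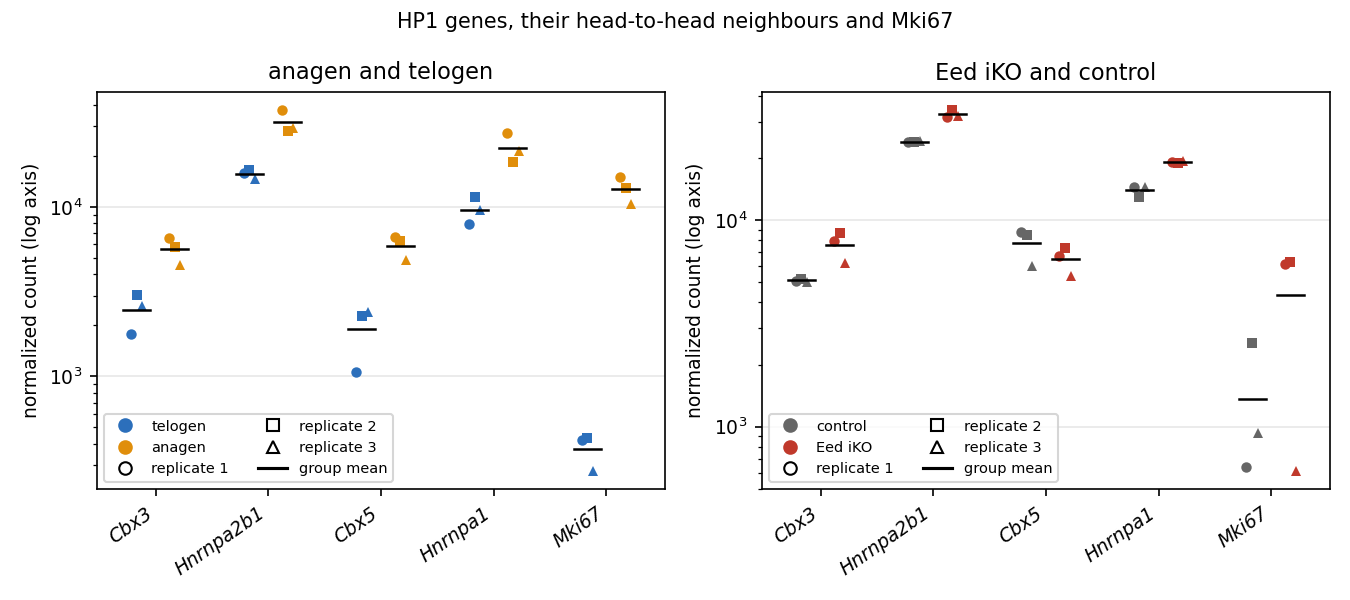
Normalised counts of Cbx3, Cbx5, their head-to-head neighbours Hnrnpa2b1 and Hnrnpa1, and Mki67 on log axes, in anagen and telogen (left) and in Eed iKO and control libraries (right), with bars at group means. All 5 genes are higher in every anagen library than in every telogen library, and Cbx5 alone of the 5 has a lower mean in Eed iKO libraries (6484) than in control (7743).

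Among the H3K9 methyltransferase genes, Suv39h1 showed the largest difference between the stages (chromosome X, 8061171 to 8074760, minus strand). It was at 173.1, 97.8 and 126.0 in telogen and at 342.2, 330.8 and 184.8 in anagen, with anagen replicate 3 just above the highest telogen library. The log2 fold change was 1.09 (SE 0.37, interval 0.28 to 1.90, limma unadjusted p = 0.0125, adjusted p = 0.0808). Over the alternatives run, the limma adjusted p ran from 0.0489 without telogen replicate 1 to 0.280 without anagen replicate 1. Only the former was under 0.05. Suv39h1 shares 14.6% of its exon bases with the antisense gene Gm14820, and whether the libraries kept strand was not given in the sources used here, so its reads are uncertain.

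Suv39h2, its paralogue, was at 241.6, 161.4 and 307.3 in telogen and at 334.7, 346.5 and 363.4 in anagen (chromosome 2, 3455815 to 3475031, minus strand). The groups did not overlap, the anagen libraries were close together, and the log2 fold change was 0.60 (SE 0.30, interval -0.07 to 1.27, limma adjusted p = 0.228). It shares 9.98% of its exon bases with Dclre1c and an antisense gene. Groups that did not overlap were found for 5 of the 10 genes (Suv39h1, Suv39h2, Cbx3, Cbx5 and Trim28) and for 33.3% of all genes tested. An unadjusted p under 0.05 was reached by 3 of the 10 (Suv39h1, Cbx3 and Cbx5) and by 27.3% of all genes.

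Setdb1, the TRIM28-guided trimethylase, was at 938.4, 605.9 and 982.3 in telogen and at 1007, 1131 and 907.6 in anagen (chromosome 3, 95323525 to 95357202, minus strand). The groups overlapped, with telogen replicate 2 lowest, and the log2 fold change was 0.30 (SE 0.24, interval -0.23 to 0.82, limma adjusted p = 0.462). Ehmt1, which encodes GLP, was at 1011, 1351 and 516.6 in telogen and at 765.8, 817.9 and 741.9 in anagen (chromosome 2, 24789928 to 24919614, minus strand). All anagen values fell inside the telogen range, and the log2 fold change was -0.20 (SE 0.32, interval -0.89 to 0.49, limma adjusted p = 0.723). Ehmt2, which encodes G9a, was at 663.9, 858.7 and 534.4 in telogen and at 581.8, 608.0 and 592.8 in anagen (chromosome 17, 34898469 to 34914052, plus strand). Its anagen values also lay inside the telogen range (log2 fold change -0.18, SE 0.24, interval -0.71 to 0.35, limma adjusted p = 0.668).

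Trim28, the corepressor KAP1 that brings SETDB1 and HP1 to target sites, was at 446.1, 523.4 and 478.9 in telogen and at 818.8, 612.4 and 556.6 in anagen (chromosome 7, 12999114 to 13031035, plus strand). The stages did not overlap, and the log2 fold change was 0.44 (SE 0.24, interval -0.09 to 0.96, limma adjusted p = 0.262). Kdm1a was at 1316, 817.9 and 958.7 in telogen and at 645.4, 972.4 and 773.2 in anagen (chromosome 4, 136550540 to 136602723, minus strand). It had the lowest log2 fold change of the 10, -0.36, with overlapping groups and an interval of -0.91 to 0.19 (SE 0.25, limma adjusted p = 0.379). The thresholds in the study's methods were an absolute log2 fold change over 2 at a p-value under 0.05, from DESeq2. Applied here to limma values, they were passed by none of the 10 genes and by 5.1% of all genes.

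The balance between paralogues within a library does not depend on the scaling of libraries. The ratio of Cbx5 to Cbx1 was 0.849, 1.65 and 3.53 in telogen and 5.47, 5.54 and 3.29 in anagen, a difference of 1.44 on the log2 scale. The ratio of Cbx3 to Cbx1 was 1.41, 2.18 and 3.83 in telogen and 5.43, 5.16 and 3.11 in anagen, a difference of 0.96. For both ratios telogen replicate 3, the library with low Cbx1, lay above anagen replicate 3, and the two-sided exact permutation p was 0.2, adjusted to 0.4 over the 8 ratios tested; 3 libraries against 3 cannot give less than 0.1. Suv39h1 over Suv39h2 was 0.718, 0.608 and 0.412 in telogen and 1.02, 0.955 and 0.510 in anagen (difference 0.49 on the log2 scale, exact permutation p = 0.3). Ehmt1 over Ehmt2 was 1.52, 1.57 and 0.967 in telogen and 1.32, 1.34 and 1.25 in anagen (difference -0.02, exact permutation p = 1).

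Levels between genes were compared as normalised counts per kilobase of median transcript length. In telogen, Cbx3 was highest at 1551 ± 398 (SD, n = 3), followed by Cbx1 at 881 ± 299 and Cbx5 at 795 ± 308, which overlapped each other. In anagen the order was Cbx3 at 3565 ± 638, Cbx5 at 2456 ± 393 and Cbx1 at 1013 ± 141, with no overlap between neighbours. Kdm1a came next in both stages, at 503 ± 125 in telogen and 389 ± 80.4 in anagen. Setdb1, Trim28, Ehmt1 and Ehmt2 followed between 149 and 211 in telogen and between 156 and 220 in anagen, mostly within each other's spread. The SUV39H genes were at the bottom in telogen, Suv39h2 at 109 ± 33.7 and Suv39h1 at 47.6 ± 13.7, and Suv39h1 was also lowest in anagen at 103 ± 31.6. Per kilobase of merged exons, Cbx3 stayed first in both stages and Suv39h1 last, while Trim28 moved up in anagen, from below Setdb1 to just above Kdm1a. The spread between replicates of the 10 genes, as a coefficient of variation, had a median of 27.2% in telogen and 15.0% in anagen.

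Genes that work with these 10 were read from 6 lists of 47 genes in all, of which 42 could be tested in the hair cycle table. Of the 42, 6 rose and 3 fell in anagen, 15 had an unadjusted p under 0.05, and the median log2 fold change was 0.22. Over all genes tested the shares were 7.22% called higher, 11.6% called in either direction and 27.3% at an unadjusted p under 0.05. The HP1 and TRIM28 partners held 5 of the 6 genes that rose, out of 10 tested, with a median of 1.02. Uhrf1, which links methylated H3K9 to maintenance of DNA methylation, had the largest log2 fold change, 5.36 (SE 0.71, limma adjusted p = 0.000958), from 23.3 ± 26.0 in telogen to 642 ± 135 in anagen (SD, n = 3). It was 4.51 without telogen replicate 1 and 6.26 without telogen replicate 2. The CAF-1 subunit genes Chaf1b and Chaf1a, whose complex loads new histones behind the replication fork and binds HP1, rose by 3.53 (SE 0.42, limma adjusted p = 0.000457) and 1.98 (SE 0.51, limma adjusted p = 0.0312). For Chaf1a it was 1.30 without telogen replicate 2 and 2.56 without telogen replicate 3. Incenp, a chromosomal passenger protein that binds HP1, rose by 2.54 (SE 0.30, limma adjusted p = 0.000398), from 147 ± 40.7 to 842 ± 137. Lbr, the lamin B receptor that tethers HP1 to the nuclear envelope, rose by 1.33 (SE 0.36, limma adjusted p = 0.0363). Daxx, Atrx, Smarcad1, Pogz and Adnp did not pass.

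In the CoREST list, 1 of 12 genes tested rose, the scaffold gene Rcor1 (log2 fold change 0.96, SE 0.20, limma adjusted p = 0.0128), and none fell. Of the 9 H3K9 demethylases tested, 2 fell: Phf8 (-0.90, SE 0.24, limma adjusted p = 0.0330), a demethylase of dimethyl H3K9, and Kdm4c (-0.75, SE 0.22, limma adjusted p = 0.0470), a demethylase of trimethyl H3K9. Of the 3 other H3K9 methyltransferases tested, Prdm2 fell (-1.01, SE 0.24, limma adjusted p = 0.0227), from 1271 ± 294 in telogen to 626 ± 123 in anagen (SD, n = 3). No gene of the SETDB1 and HUSH partners (6 tested, 1 with an unadjusted p under 0.05) or of the GLP and G9a partners (2 tested, 1 with an unadjusted p under 0.05) was called by limma. The former was Atf7ip2, a SETDB1 cofactor gene named here after its values were seen. It was at 2.63 ± 4.55 in telogen and 22.2 ± 10.7 in anagen (SD, n = 3, log2 fold change 3.39, SE 1.01, limma adjusted p = 0.0531). Its telogen mean lay below the filter's count minimum of 10, so it entered the test only through anagen, where it was high. Its p-values are therefore a description only. With limma values it passed the study's thresholds. Its log2 fold change depends on the pseudocount (5.59 with 0.1), and without telogen replicate 3 it was 4.44 at a limma adjusted p of 0.0220. With the replicate block and values less their trend with length and GC the limma adjusted p was 0.0408. Every other fit of Atf7ip2 gave a limma adjusted p above 0.05, from 0.0509 with the replicate block to 0.185 without anagen replicate 3. Leaving out an anagen replicate brought the number of partner genes called from 9 to between 3 and 5, with 3 called without replicate 1 and 5 without replicate 2 or replicate 3. Uhrf1, Chaf1b and Incenp were called in every fit run, and Chaf1a, Lbr, Rcor1, Prdm2, Phf8 and Kdm4c lost the call in at least 1 of them. Other genes, named after their values were seen, gained a call. The CoREST gene Hdac1 (log2 fold change 1.17, limma adjusted p = 0.0625) was called in some fits, such as the replicate block (limma adjusted p = 0.0430). Hdac2 and Jmjd1c were called without telogen replicate 1 (limma adjusted p = 0.0244 and 0.0221).

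**Figure D3:**
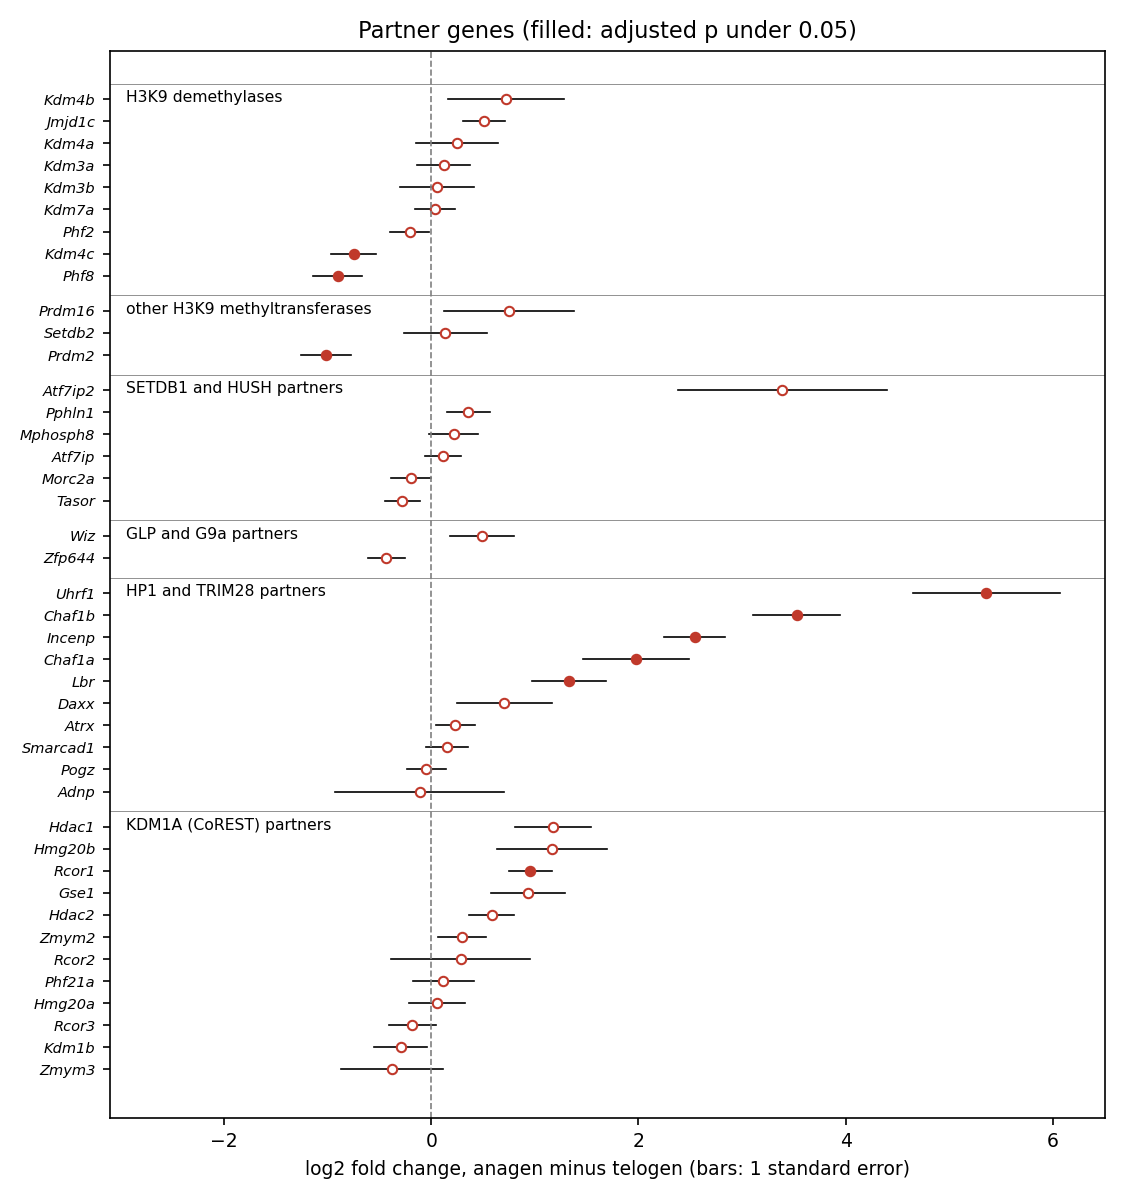
Log2 fold change, anagen minus telogen, of the 42 partner genes tested, grouped by list, with bars of 1 standard error and filled points for an adjusted p under 0.05. Uhrf1 (5.36), Chaf1b (3.53), Incenp (2.54), Chaf1a (1.98), Lbr (1.33) and Rcor1 (0.96) are filled on the right, and Prdm2 (-1.01), Phf8 (-0.90) and Kdm4c (-0.75) on the left.

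Other gene sets moved with the stages too. All 16 genes of the proliferation list rose in anagen, with a median log2 fold change of 3.07, and their summed counts were 4369 to 5994 in telogen and 28416 to 46645 in anagen. Mki67 was at 420.5, 430.6 and 276.1 in telogen and at 14954, 12975 and 10404 in anagen (log2 fold change 5.10, SE 0.23, limma adjusted p = 1.95e-06). Among the HFSC markers, Cd34 fell (-1.21, limma adjusted p = 0.00382) and Itga6 rose (0.97, limma adjusted p = 0.0144), both of which were sorting antigens. Of the other marker lists, called genes were Dct, higher, and Mitf, lower, of 5 melanocyte genes tested, Col1a1 and Dcn, higher, of 4 fibroblast genes, Awat2, lower, of 2 sebaceous genes and Tchh, higher, of 5 hair matrix and inner root sheath genes. No gene was called among 6 immune, 1 endothelial and 5 differentiated epidermis markers, none of which had an unadjusted p under 0.05. The part of proliferation and of these cells in the differences of Cbx3, Cbx5 and their partners was not tested.

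In the Eed comparison, no gene of the 10 was called by limma at an adjusted p under 0.05, against 0.0267% of the 15008 genes tested (4 genes). Ehmt2, which encodes G9a, had the largest difference, 2.08-fold higher in libraries labelled Eed iKO than in control, and Cbx3 was 1.48-fold higher. DESeq2 on the recovered reads, the tool named in the study's methods, called these 2 genes (adjusted p = 0.000888 for Ehmt2 and 0.0258 for Cbx3) among 679 of all genes (4.52%), and edgeR's quasi-likelihood test called neither (0.0896 and 0.135) among 5 of all genes. Suv39h1 and Suv39h2 were lower, at log2 fold changes of -0.63 and -0.78 that did not pass. The median log2 fold change of the 10 genes was -0.06, against -0.00 over all genes, and its median size was 0.27 against 0.30.

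Ehmt2 was at 1208, 1427 and 2057 in control replicates 1 to 3 and at 3453, 2854 and 3254 in the libraries labelled Eed iKO. All 3 Eed iKO libraries lay above all control libraries, and control replicate 3 was the highest control. The log2 fold change was 1.06 (SE 0.21, interval 0.60 to 1.51, limma unadjusted p = 0.000364, adjusted p = 0.0910). Over the alternatives run, its log2 fold change stayed between 0.89 and 1.27. Its partner Ehmt1 was at 3341, 3083 and 2874 in control and at 2813, 2886 and 2392 in Eed iKO. The groups overlapped by a narrow margin, and the log2 fold change was -0.20 (SE 0.15, interval -0.54 to 0.13, limma adjusted p = 0.561). The ratio of Ehmt1 to Ehmt2 was therefore 2.76, 2.16 and 1.40 in control and 0.815, 1.01 and 0.735 in Eed iKO, with no overlap. The difference was -1.26 on the log2 scale (two-sided exact permutation p = 0.1, the smallest that 3 against 3 can give, adjusted to 0.4 over 8 ratios).

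Suv39h1 was at 901.9, 664.0 and 734.4 in control and at 508.6, 661.3 and 350.0 in Eed iKO. The lowest control and the highest Eed iKO library, both replicate 2, were nearly equal, and the log2 fold change was -0.63 (SE 0.28, interval -1.26 to -0.01, limma unadjusted p = 0.0485, adjusted p = 0.335). Suv39h2 was at 312.9, 333.6 and 272.0 in control and at 103.2, 252.3 and 212.6 in Eed iKO. The groups did not overlap, Eed iKO replicate 1 was far lower than the others, and the log2 fold change was -0.78 (SE 0.40, interval -1.68 to 0.11, limma adjusted p = 0.397). Their ratio was 2.88, 1.99 and 2.69 in control and 4.89, 2.61 and 1.64 in Eed iKO (difference 0.15 on the log2 scale, exact permutation p = 0.9). Setdb1 was at 2321, 2305 and 2413 in control and at 2227, 2598 and 2007 in Eed iKO (log2 fold change -0.05, SE 0.16, interval -0.40 to 0.30, limma adjusted p = 0.912), so its control libraries lay inside the Eed iKO range.

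Of the HP1 genes, Cbx3 was at 5085, 5212 and 5027 in control and at 7931, 8690 and 6214 in Eed iKO. The control libraries were nearly level, all Eed iKO libraries were higher, and Eed iKO replicate 3 was the lowest of the 3. The log2 fold change was 0.56 (SE 0.15, interval 0.23 to 0.90, limma unadjusted p = 0.00363, adjusted p = 0.141), and without Eed iKO replicate 3 it was 0.70 at an adjusted p of 0.0487. Cbx5 was at 8742, 8456 and 6032 in control and at 6740, 7352 and 5360 in Eed iKO (-0.25, SE 0.18, interval -0.65 to 0.15, limma adjusted p = 0.549). Cbx1 was at 3696, 2946 and 2824 in control and at 3118, 3363 and 2572 in Eed iKO (-0.06, SE 0.17, interval -0.44 to 0.31, limma adjusted p = 0.896). Both overlapped between the groups. The ratio of Cbx3 to Cbx1 was 1.38, 1.77 and 1.78 in control and 2.54, 2.58 and 2.41 in Eed iKO, with no overlap (difference 0.62 on the log2 scale, exact permutation p = 0.1). Cbx5 over Cbx1 was 2.36, 2.87 and 2.14 in control and 2.16, 2.19 and 2.08 in Eed iKO (difference -0.19, exact permutation p = 0.3). Hnrnpa2b1, the neighbour of Cbx3, was at 23970, 23915 and 24229 in control and at 31588, 34139 and 31794 in Eed iKO (log2 fold change 0.43, SE 0.12, limma adjusted p = 0.152). Hnrnpa1, the neighbour of Cbx5, was at 14473, 12990 and 14459 in control and at 19224, 18941 and 19374 in Eed iKO (0.46, SE 0.12, limma adjusted p = 0.141), so its difference had the opposite sign to that of Cbx5. C2, the neighbour of Ehmt2, also had the opposite sign to Ehmt2, at -1.09 (limma, adjusted p = 0.357). Slc27a5, low at 0 to 57.3 in these libraries, had the same sign as Trim28, at 1.26 (SE 1.36, limma adjusted p = 0.717).

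**Figure D4:**
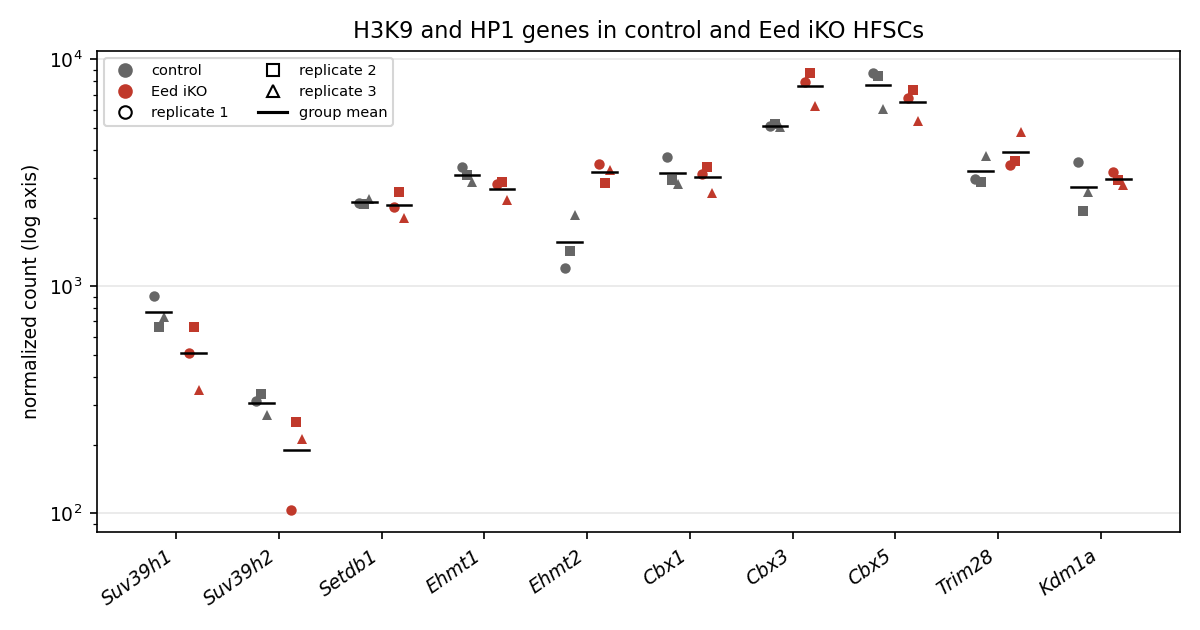
Normalised counts of the 10 genes in the 3 control and 3 Eed iKO libraries on a log axis, with 1 symbol per replicate and a bar at each group mean. Ehmt2 (control 1208 to 2057, Eed iKO 2854 to 3453) and Cbx3 (5027 to 5212, 6214 to 8690) are higher in every Eed iKO library, and Suv39h1 and Suv39h2 are lower in every one.

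Trim28 was at 2980, 2893 and 3750 in control and at 3419, 3580 and 4771 in Eed iKO. The groups overlapped, replicate 3 was the highest in each, and the log2 fold change was 0.28 (SE 0.18, interval -0.10 to 0.67, limma adjusted p = 0.479). Kdm1a was at 3513, 2140 and 2590 in control and at 3199, 2927 and 2790 in Eed iKO, with overlapping groups and a coefficient of variation of 25.5% in control (log2 fold change 0.14, SE 0.19, interval -0.28 to 0.56, limma adjusted p = 0.776). All libraries of one group lay above all of the other for 4 of the 10 genes (Ehmt2, Suv39h1, Suv39h2 and Cbx3) and for 20.2% of all genes tested. An unadjusted p under 0.05 was reached by 3 of the 10 (Ehmt2, Suv39h1 and Cbx3) and by 14.7% of all genes. The study's thresholds for this comparison, an absolute log2 fold change over 1.5 at a p-value under 0.05, were passed by none of the 10 and by 1.75% of all genes. The methods put that threshold on the log2 scale, while a linear fold change of 1.5 at an adjusted p under 0.05 is also given. With limma none of the 10 passed the linear one. With DESeq2 Ehmt2 passed it (log2 fold change 1.03, adjusted p = 0.000888), as did 3.9% of all genes, and Cbx3 (0.57) did not.

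**Figure D5:**
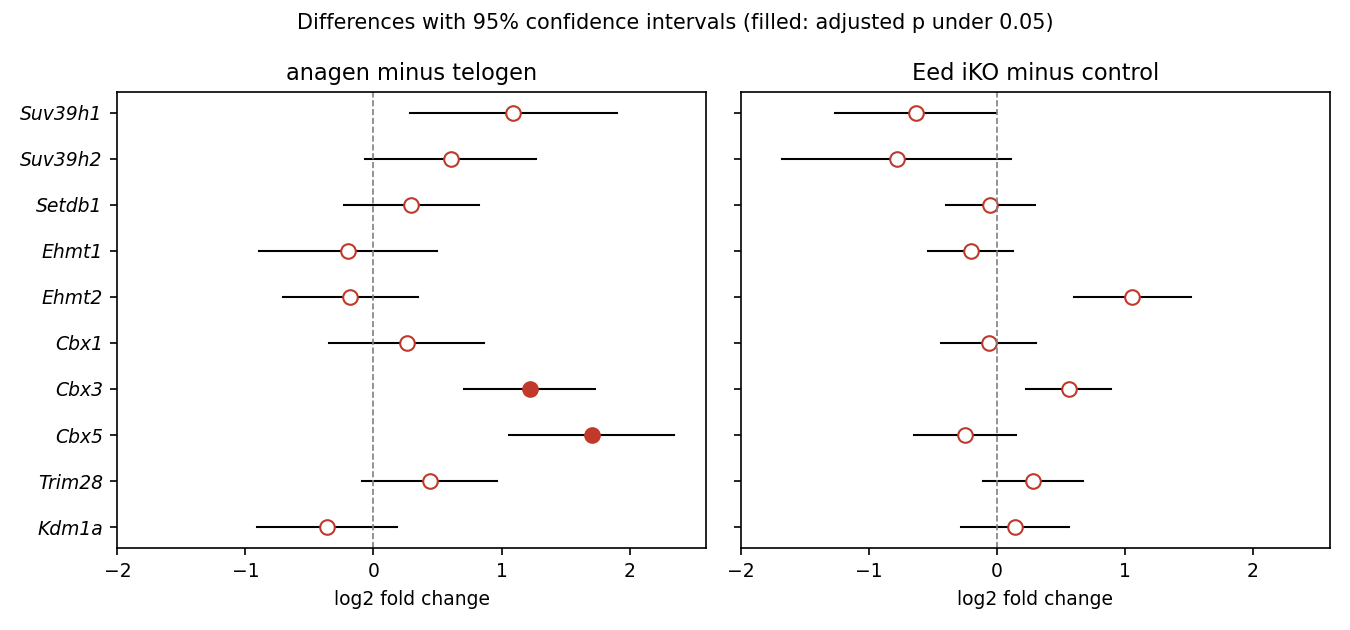
Log2 fold change of each gene with its 95% confidence interval, anagen minus telogen (left) and Eed iKO minus control (right), with filled points for an adjusted p under 0.05. Cbx3 (1.22) and Cbx5 (1.70) are filled in the hair cycle panel and no point is filled in the Eed panel, where Ehmt2 (1.06) lies farthest from 0.

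By level per kilobase of median transcript length, Cbx3 at 3223 ± 59.9 (SD, n = 3) and Cbx5 at 3222 ± 619 were level in control cells, and Cbx1 at 2522 ± 377 overlapped Cbx5. In Eed iKO libraries Cbx3 stood above the others at 4802 ± 801, followed by Cbx5 at 2698 ± 424 and Cbx1 at 2412 ± 323. Ehmt2 stood in control at 410 ± 116, below Ehmt1 at 683 ± 51.5, and in Eed iKO at 836 ± 79.9, above Ehmt1 at 594 ± 58.8. Suv39h1 (276 ± 44.0 and 182 ± 56.0) and Suv39h2 (141 ± 14.5 and 87.3 ± 35.6) were lowest in both groups. Per kilobase of merged exons the first place in control passed to Cbx5, and Ehmt2 still stood below Ehmt1 in control and above it in Eed iKO.

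Of the 41 partner genes tested in the Eed table, none was called by limma or edgeR, 8 had an unadjusted p under 0.05, and DESeq2 called 1, Pogz, a zinc finger protein that binds HP1 (log2 fold change -0.55, adjusted p = 0.00781). The median log2 fold change was -0.05, with 18 higher and 23 lower. Over all genes tested, the background for every list here, DESeq2 called 4.52% and 14.7% had an unadjusted p under 0.05 in limma. The H3K9 demethylases (9 tested), other methyltransferases (3), SETDB1 and HUSH partners (5), GLP and G9a partners (2) and CoREST partners (12) held no call by limma, DESeq2 or edgeR, with 2, 0, 1, 0 and 1 genes at an unadjusted p under 0.05. Of the 10 HP1 and TRIM28 partners tested, 4 had an unadjusted p under 0.05 in limma. All 16 genes of the proliferation list had a positive log2 fold change with a median of 0.78, 5 had an unadjusted p under 0.05, limma and edgeR called none, DESeq2 called 2, and the summed counts were 12458 to 15106 in control and 14906 to 27008 in Eed iKO. Mki67 was at 639.0, 2543 and 927.6 in control and at 6125, 6301 and 609.0 in Eed iKO (1.32, SE 0.79, limma adjusted p = 0.462). Cbx3 was also lowest in the Eed iKO library with low Mki67, and so were Setdb1, Ehmt1, Suv39h1, Cbx1, Cbx5 and Kdm1a. Ehmt2, Suv39h2 and Trim28 were not. Of 41 cell type markers tested across the 8 lists, limma and edgeR called none. DESeq2 called 2 and 8 had an unadjusted p under 0.05, against 4.52% and 14.7% of all genes. The 2 DESeq2 calls were 1 HFSC marker, higher, and 1 fibroblast marker, lower. Of the 11 HFSC markers, 4 had an unadjusted p under 0.05 in limma. Krt14, a basal keratin, was higher in every Eed iKO library (71955 ± 13617 in control, 126174 ± 13463 in Eed iKO, SD, n = 3, log2 fold change 0.82, limma adjusted p = 0.104). Itga6 had a log2 fold change of 0.41, Nfatc1 of -0.39 and Tcf7l1 of -0.47. The fibroblast gene Col1a1 was at -1.48 (limma adjusted p = 0.228). Of the 7 immune markers tested 5 had a positive and 2 a negative log2 fold change (H2-Aa -0.25 and Cd3e -0.48), and the list summed to 249 to 530 in control and 426 to 1001 in Eed iKO. Cd207 was listed at 0 in every control library and at 13.3 to 23.7 in Eed iKO, and Lyz2, too low to be tested, was listed at 0 in every control library and between 0 and 65.1 in Eed iKO. The part of proliferation and of other cells in the differences of Ehmt2 and Cbx3 was not tested.

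The genes whose log2 values followed Ehmt2 most closely over the 6 libraries of the Eed table were Coq7 (Pearson r = 0.999), Gnb2 (0.992) and Arpc3 (0.992), among genes with a mean of at least 100. For Cbx5 in the hair cycle table they were Psmd11 (0.999), Ganab (0.999) and Trappc13 (0.998). These correlations share their libraries and their scaling and are a description only.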

How the data were processed

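RNA of 12 sorted HFSC libraries was amplified from 10 ng, sequenced as 150-nucleotide paired ends and, per the study's methods, quantified by the authors with kallisto 0.42.5 on Gencode vM20 (mm10) and scaled with DESeq2. The deposited values are a signal, read counts divided by a size factor per library. They equal whole reads within 0.05 for 100% of values in the Eed table and for 33.3% to 43.9% in the hair cycle table. These shares count values of 0 as whole, and only 15375 to 16228 of the 21915 genes were above 0 in a hair cycle library. Columns of the authors' own comparisons (log2 fold change, p-value and q-value, deposited in the same tables) were not used.

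Each table was tested on its own with limma 3.58.1 (R 4.3.3) on log2(value + 1) with an intensity trend, after filterByExpr with a count minimum of 10. Fold changes are on that scale, which understates those of low genes. Call rule: Benjamini-Hochberg adjusted p under 0.05 over all genes tested. On the recovered reads, DESeq2 1.42.0 called 679 genes and edgeR 4.0.16 called 5. Alternatives were a pseudocount of 0.1, no filter, TMM factors, no intensity trend, a replicate block, each library left out and, chosen after seeing the data, DESeq2 with the block a linear fold threshold of 1.5 and values less their trend with transcript length and GC, with and without the block. Ratios were compared by exact permutation. Positions and lengths came from GENCODE vM21 (GRCm38). The tests were run on simulated data first. All 10 members, up to 5 called partner genes per direction, Mki67 and Eed were named, and the 3 genes most like the member with the smallest p. The members and lists were chosen with earlier results of these data known.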

Additional observations from a re-analysis of the deposited data

How the results depend on the processing

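The 10 genes kept the direction of their log2 fold change in 282 of 290 alternatives, and the call changed with the direction kept in 10. In the Eed comparison 0 of the 10 genes were called; 2 (Ehmt2 and Cbx3) were called with a replicate block, by DESeq2 and by DESeq2 with the block, 1 (Ehmt2) with the block on values less their trend with transcript length and GC, 1 (Ehmt2) with DESeq2 and a fold change of at least 1.5 (a rule added after seeing the data) and 0 to 1 with 1 library left out (1 without Eed iKO replicate 3, Cbx3). Adjusted p with the block was 0.00900 for Ehmt2 and 0.0442 for Cbx3, and over all alternatives 1.05e-05 to 0.447 and 0.00477 to 0.475. Partner genes called there went from 0 to 1 with the block or DESeq2 (Pogz) and 3 with both (Pogz, Adnp and Uhrf1). All genes called went from 4 (3 higher, 1 lower) to 424 with the block, 188 without Eed iKO replicate 3, 1217 with DESeq2 and the block, 271 with the block and the trend removed, 2 without an intensity trend and 1 (lower) with the trend in length and GC removed or any other library left out. Deviations of same-numbered samples correlated at 0.04, 0.07 and 0.19 in the Eed table and at -0.03, -0.07 and -0.03 in the hair cycle table. In the Eed table replicate 3 of each group deviated together and matched each other best, the other numbers did so less, and no label ties a number to a litter or batch, so the numbers were not taken as pairs.

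In the hair cycle comparison 2 of the 10 genes were called. The count was 1 without an intensity trend (Cbx5), 0 with the study's thresholds on limma values and 2 to 3 with 1 library left out. Partner genes called went from 9 to 3 without an intensity trend, 4 with the study's thresholds and 3 to 9 with 1 library left out. All genes called went from 1556 to 842 without an intensity trend and 590 to 1534 with 1 library left out. The adjusted p of Cbx5 stayed between 0.00138 and 0.0493. The replicate block changed no call on the 10 genes here.

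Small differences turned direction. With 1 library left out, the Eed log2 fold change ranged from -0.15 to 0.036 for Setdb1 (0.045 with the length and GC trend removed, with or without the block), -0.15 to 0.056 for Cbx1 and -0.024 to 0.33 for Kdm1a. In the hair cycle it ranged from -0.59 to 0.10 for Ehmt1 and -0.060 to 0.45 for Cbx1. The log2 ratio difference ranged from -0.25 to 0.10 for Ehmt1 over Ehmt2 in the hair cycle and -0.26 to 0.52 for Suv39h1 over Suv39h2 in the Eed comparison. The cause was not tested in any of these. Exact tests of 3 libraries against 3 cannot go below 0.1, and no depth is known for the hair cycle libraries.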
